A study of Sylvia borin with 20 samples.

Results

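Ion channel genes were examined in the whole blood of 10 garden warblers (Sylvia borin) sampled before and after refueling. They were taken by symbol from the gene name column, as every symbol of the voltage-gated calcium channel (CACNA, CACNB, CACNG), potassium channel (KCN), voltage-gated sodium channel (SCN), ryanodine receptor (RYR), inositol trisphosphate receptor (ITPR), ionotropic glutamate receptor (GRIA, GRIK, GRIN) and transient receptor potential (TRPC, TRPM, TRPV) families. This gave 139 of 20898 symbols. Each wild bird was caught on spring passage, kept in its own cage with food and water, and bled on day 1, when lean, and on day 5, when fat, so that 10 lean and 10 fat libraries form 10 pairs by replicate number. No group carried a genetic change or a drug, and time in the cage and refueling cannot be told apart, because all birds shared both.

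Ion channels are membrane proteins that let ions pass down their gradients when voltage, a ligand, calcium, heat or stretch opens them. The pore is built from principal subunits, and auxiliary subunits alter how the pore opens and how much of it reaches the surface. Most of these families are known from nerve, heart and muscle, while blood cells use a smaller set, among them the store release channels of the endoplasmic reticulum. Red cells of birds keep their nucleus, and bird thrombocytes are nucleated cells rather than fragments.

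Levels are given as FPKM (fragments mapped to a transcript, scaled to its length in kilobases and to the size of the library). Values of single libraries are normalized FPKM, the deposited values divided by a scaling factor per library. A symbol whose deposited FPKM averaged at least 1 over the 20 libraries was called expressed, one from 0.1 to under 1 low, and one above 0 but under 0.1 trace. By these limits 6 channel symbols were expressed, 12 were low, 77 were trace and 44 were listed at 0 in every library. Over all symbols the classes held 4605 expressed, 3195 low, 4905 trace and 8193 symbols listed at 0. The last symbol inside the limit for expression was KCNAB2 at a mean of 1.04, and the first outside it was CACNA2D2 at 0.669. The limit of 0.1 fell between KCNJ2 at 0.103 and KCNJ15 at 0.0942.

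The files give the mean coverage of each gene and no read counts, so depth was derived by dividing coverage by FPKM. It came to 0.882 to 4.71 gigabases of aligned sequence in lean libraries (median 1.66) and 1.27 to 3.16 in fat libraries (median 2.34). A lean library had 7937 ± 568.3 symbols above 0 and a fat library 7226 ± 344 (SD, n = 10 each). Erythroid markers had a summed level of 123609 to 188125 normalized FPKM in lean libraries and 167518 to 301381 in fat libraries, higher on day 5 in all 10 birds. Of 8 T cell markers in the files 5 were detected, and CD3E, CD5 and CD8B were listed at 0 throughout. In these bulk samples fewer cells of a type and less RNA per cell cannot be told apart.

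Of the 6 expressed symbols, 2 do not encode channel subunits. GRINA, a membrane protein of the TMBIM family that carries its name from an NMDA receptor association, had the highest level. It was between 43.0 and 145 normalized FPKM in lean libraries (median 68.1) and between 29.4 and 84.0 in fat libraries (median 61.4). TRPC4AP, an adapter of a ubiquitin ligase in mammals, was between 5.09 and 9.96 in lean (median 8.09) and between 4.64 and 9.40 in fat libraries (median 6.63). The conditions overlapped widely for both, with adjusted p = 0.409 for GRINA and 0.612 for TRPC4AP (limma, Benjamini-Hochberg over 7800 symbols).

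The expressed set included the store release channels ITPR2 and ITPR3, inositol trisphosphate receptors that release calcium from the endoplasmic reticulum. ITPR2 ranged from 0.589 to 4.15 normalized FPKM in lean libraries (median 1.80) and from 0.451 to 1.63 in fat libraries (median 1.23). ITPR3 ranged from 0.642 to 3.65 in lean (median 1.28) and from 0.120 to 1.42 in fat libraries (median 0.724). Each was lower on day 5 in 8 of 10 birds, and the highest library of both was that of bird 2 when lean. The log2 fold changes (fat over lean, on log2(FPKM + 0.1)) were −0.63 ± 0.29 for ITPR2 and −0.88 ± 0.36 for ITPR3 (SE), and neither passed the test (limma adjusted p = 0.203 and 0.149, and 0.144 and 0.0850 with the block).

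ITPR1, the third gene of this family, was low, at 0 to 0.309 normalized FPKM in lean and 0 to 0.148 in fat libraries, and was above 0 in 8 lean and 6 fat libraries. Of the ryanodine receptors, which release calcium in muscle, RYR2 and RYR3 were trace. RYR2 was detected in 6 lean libraries, at 0.291 or less, and in 1 fat library, at 0.0805. RYR3 was above 0 in 5 lean and 4 fat libraries.

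KCNAB2, an auxiliary beta subunit of voltage-gated potassium channels, was the last of the expressed set by mean. It spanned 0.181 to 3.17 normalized FPKM in lean libraries (median 1.11) and 0 to 2.36 in fat libraries (median 0.392), with the fat library of bird 10 listed at 0. No pore-forming potassium channel was expressed by the limit of 1, and the KCNA pores among the channel symbols were all trace or listed at 0. Birds 1, 8 and 9 had at least 1.30 normalized FPKM of KCNAB2 in both of their libraries. The comparison did not pass (log2 fold change −1.01 ± 0.64, SE, limma adjusted p = 0.359, and 0.108 with bird as a block, where the SE was 0.40). KCNAB2 fell below a mean of 1 when any of birds 1, 2, 8 or 9 was left out, which left 5 expressed symbols.

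**Figure D1:**
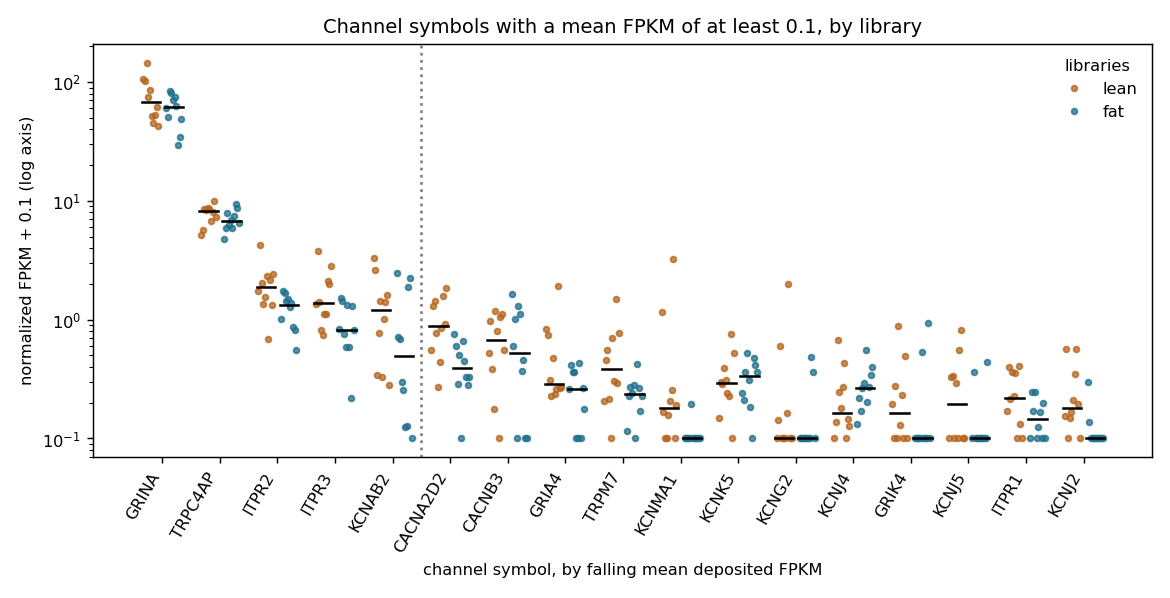
Normalized FPKM plus 0.1, on a log axis, of 17 of the 18 channel symbols whose deposited FPKM averaged at least 0.1. Each point is 1 library (10 lean in brown, 10 fat in blue), the black bars are medians and the dotted line separates expressed from low symbols. The conditions overlap in all 17, and points at the bottom of the axis are libraries listed at 0.

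The low class held auxiliary subunits of calcium channels, potassium channels, glutamate receptor subunits and TRPM7. CACNA2D2, an auxiliary alpha-2-delta subunit that aids the surface delivery of calcium channels, was between 0.172 and 1.76 normalized FPKM in lean libraries (median 0.787) and between 0 and 0.651 in fat libraries (median 0.289). It was lower on day 5 in 8 of 10 birds, with a log2 fold change of −1.19 ± 0.40 (SE). Its adjusted p was 0.0770 in limma without a bird term and 0.0404 with bird as a block. CACNB3, an auxiliary beta subunit, was above 0 in 9 lean and 7 fat libraries and split evenly, lower on day 5 in 5 birds and higher in 5. No pore-forming CACNA1 gene reached a mean of 0.1, so both auxiliary subunits stood above every pore of their family.

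TRPM7, a cation channel fused to a kinase, was above 0 in 9 libraries of each condition, with a median of 0.281 in lean and 0.135 in fat libraries. GRIA4, a subunit of AMPA-type glutamate receptors, was above 0 in all 10 lean and in 7 fat libraries, and its highest value of 1.82 came from the lean library of bird 8. The median was 0.190 in lean and 0.163 in fat libraries. GRIK4, a kainate receptor subunit, was above 0 in 6 lean and 2 fat libraries, the highest being a fat library at 0.830. The adjusted p was 0.227 for TRPM7, 0.209 for GRIA4 and 0.694 for GRIK4 (limma).

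KCNMA1 encodes the pore of the large-conductance calcium-activated potassium channel. Of the lean libraries 7 held it, and of the fat libraries 1. The lean library of bird 8 held 3.13 normalized FPKM and that of bird 1 held 1.06, while the other lean libraries ran from 0 to 0.156. The sole fat library above 0 was that of bird 5, at 0.0939. The log2 fold change of −1.23 ± 0.51 (SE) did not pass (limma adjusted p = 0.154, and 0.114 with the block).

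Inward rectifiers, potassium channels that hold the resting potential, were the family with the most low members. KCNJ2 was above 0 in 8 lean and 2 fat libraries, with lean values up to 0.467 and fat values up to 0.201. KCNJ5, a subunit gated by G proteins, was above 0 in 5 lean and 2 fat libraries. KCNJ4 went the other way, above 0 in 9 lean and 10 fat libraries and higher on day 5 in 8 birds, with medians of 0.0625 and 0.168. Its log2 fold change of 0.42 ± 0.37 (SE) did not pass either (limma adjusted p = 0.536).

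KCNK5, a two-pore leak channel, was above 0 in 9 libraries of each condition with medians of 0.195 in lean and 0.237 in fat libraries. Its log2 fold change of 0.02 changed sign under other scalings and when single birds were left out. KCNG2, a modifier subunit that makes no pore on its own in mammals, was above 0 in 4 lean and 2 fat libraries, and the lean library of bird 8 held 1.91 normalized FPKM.

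Only the 18 symbols with a mean of at least 0.1 entered the comparison of levels. None passed in limma without a bird term, against 371 of all 7800 symbols tested, or 4.76%. At an unadjusted p under 0.05 the count was 7 of 18 (38.9%), against 1731 of 7800 symbols (22.2%). With bird as a block 2 of the 18 passed, CACNA2D2 among them, both lower on day 5, against 1034 of 7800 or 13.3%. The median log2 fold change of the 18 was −0.64, against −0.10 for all symbols tested, and 16 of the 18 had a negative value, against 4448 of 7800 (57.0%). The filter used the mean over both conditions, so symbols such as KCNMA1 and KCNJ2 entered through their lean libraries. The share at unadjusted p, the count of negative values and the median are therefore descriptions only. Scaling mattered: without scaling between libraries the median of all symbols moved to −0.35 for FPKM and −0.43 for TPM. On these scales 2 and 5 of the 18 channel symbols passed, all lower on day 5. Of all 7800 symbols 882 passed on FPKM and 1243 on TPM, with 856 and 1225 of them lower on day 5.

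Summed levels of other cell markers differed between the days as well. The summed level of monocyte and heterophil markers was 6.12 to 44.4 normalized FPKM in lean and 1.39 to 8.95 in fat libraries. It was lower on day 5 in 9 of 10 birds. Of 12 such markers chosen, 8 were in the files and 6 were detected, with CD14 and LYZ at 0. Thrombocyte markers summed to 49.2 to 153 in lean and 55.5 to 80.1 in fat libraries, lower in 7 birds. Of 11 chosen, 7 were in the files, all detected. Endothelial markers summed to 0.968 to 7.80 and 0.756 to 2.46, lower in all 10 birds. All 7 genes were detected in some library, but each library held 2 to 4 of them. B cell markers summed to 0.659 to 4.19 in lean and 0.0725 to 2.30 in fat libraries, lower in 9 birds. Of 9 chosen, 6 were in the files, all detected. T cell markers summed to 0 to 1.46 and 0 to 0.814, lower in 7 birds. Markers with a mean of at least 1 FPKM numbered 2 for monocytes and heterophils, 6 for thrombocytes, 2 for endothelium, 1 for B cells and 0 for T cells. The part of these cells in the channel levels was not tested.

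Most of the list lay below a mean of 0.1 and could be described by detection only. Channel symbols above 0 numbered 32.8 ± 9.78 per lean library (range 22 to 47) and 19.7 ± 3.71 per fat library (range 14 to 25; SD, n = 10 each). The fat library held fewer than the lean library of the same bird in 9 of 10 birds, by 13.1 ± 10.8 on average, and bird 9 held 2 more. The fall was not even. It was 26 symbols in bird 1, 24 in bird 6, 22 in bird 10, 21 in bird 5 and 21 in bird 8, and 10 or fewer in birds 2, 3, 4 and 7.

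Trace symbols made up 10.2 of the mean fall of 13.1 symbols, and the rest were mostly low symbols. Lean libraries held all 6 expressed symbols and fat libraries 5.9 on average, and low symbols numbered 9.4 ± 1.35 and 6.6 ± 1.17. Trace symbols numbered 32, 10, 6, 8, 26, 24, 10, 26, 9 and 23 in the lean libraries of birds 1 to 10. In the fat libraries of the same birds they numbered 8, 9, 8, 5, 9, 5, 4, 10, 11 and 3. Lean libraries therefore reached far higher counts in birds 1, 5, 6, 8 and 10, while the lean counts of birds 2, 3, 4, 7 and 9 lay within the span of the fat ones.

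Depth differed between the libraries as well. The deepest library, lean bird 4 at 4.71 gigabases, held 8 trace channels, while lean bird 5 at 1.59 and lean bird 8 at 1.61 gigabases each held 26. Fat libraries had the higher median depth and the lower counts. Aligned sequence includes erythroid transcripts, and the erythroid markers had a median summed level of 144728 normalized FPKM in lean and 236531 in fat libraries. The part of depth or of these transcripts in the detection counts was not tested.

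**Figure D2:**
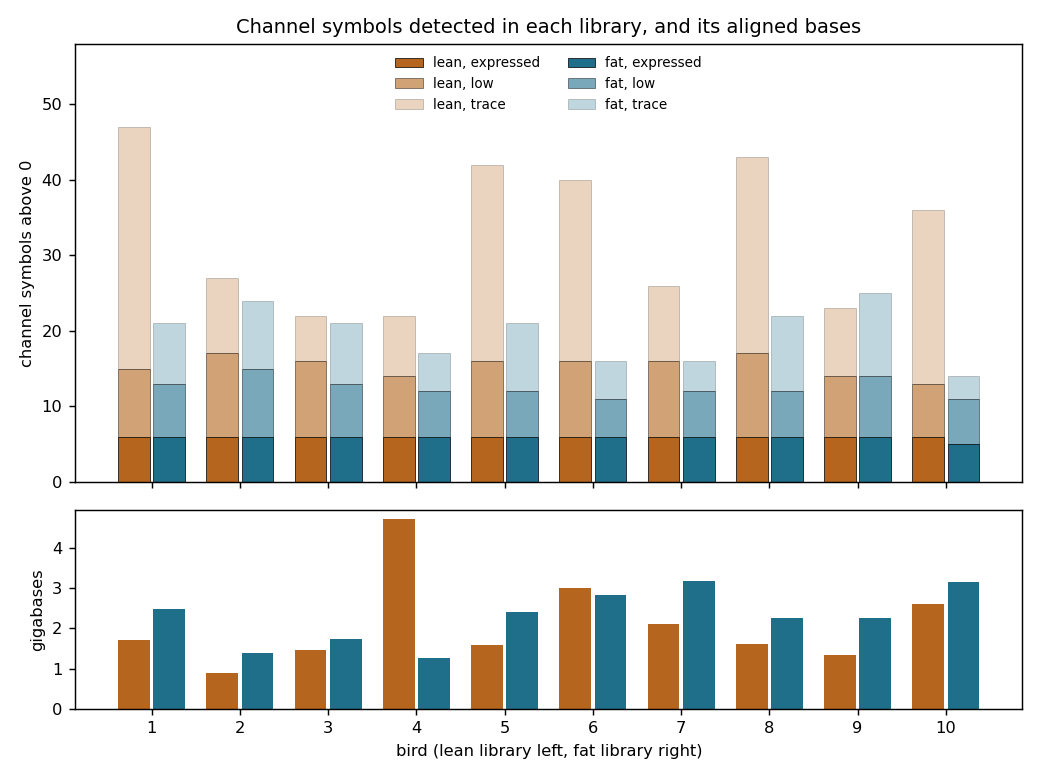
Channel symbols above 0 in each of the 20 libraries (upper panel, stacked by class) and gigabases of aligned sequence (lower panel), by bird with the lean library left and the fat library right. The excess in the lean libraries of birds 1, 5, 6, 8 and 10 lies mostly in the trace class, and the deepest library (bird 4, lean) holds 22 symbols.

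The trace class rested on very few reads. Its 246 values above 0 (174 in lean and 72 in fat libraries) had a median coverage of 0.112 reads per base, and 244 of them, or 99.2%, had a coverage under 1. Their median deposited FPKM was 0.0614. Of the 77 trace symbols, 20 were above 0 in a single library, 39 in 2 to 4 libraries and 18 in 5 or more. Over birds and trace symbols, 149 cases were above 0 in the lean library only, 47 in the fat library only and 25 in both, so 11.3% of the cases above 0 were seen on both days, against 17.4% over all trace symbols.

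Across the 95 channel symbols detected at all, 64 were above 0 in more lean than fat libraries and 10 in more fat libraries. The same direction held for 38.9% of all symbols detected. Most detected channels are trace, and within the trace class the share was 54 of 77 channels (70.1%) against 63.3% of all trace symbols. Listed in lean libraries only were 38 of the 77 (49.4%), against 36.9% of all trace symbols. In the average lean library 22.6% ± 12.5 of the trace channels and 22.8% ± 6.08 of all trace symbols were above 0. In fat libraries the shares were 9.35% ± 3.56 and 13.7% ± 2.42 (SD, n = 10).

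By symbol, no channel passed an exact two-sided sign test over birds after Benjamini-Hochberg adjustment over 12705 symbols, and neither did any other symbol. The smallest p that 10 birds allow is 0.00195, so a symbol could pass this adjustment only if a great many symbols reached that p together. The adjusted sign test could thus hardly call any symbol, and no conclusion on equal detection is drawn from it. An unadjusted sign test p under 0.05 was reached by 3 of 95 channels, against 107 of 12705 symbols (0.842%). Symbols above 0 in all 20 libraries cannot differ, and these were 5 of the channels and 4487 of all symbols. Within the trace class the counts were 1 of 77 channels and 48 of 4905 symbols. The 3 channels were KCNJ2, KCNMA1 and KCNJ15. Each was above 0 in the lean library only in 6 birds and in the fat library only in none (exact p = 0.0312). Fisher's exact test, which ignores the pairing, called no symbol after adjustment either. Its unadjusted p was under 0.05 for 5 of 95 channels and 174 of 12705 symbols. Within the trace class these were 3 of 77 channels and 83 of 4905 symbols.

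**Figure D3:**
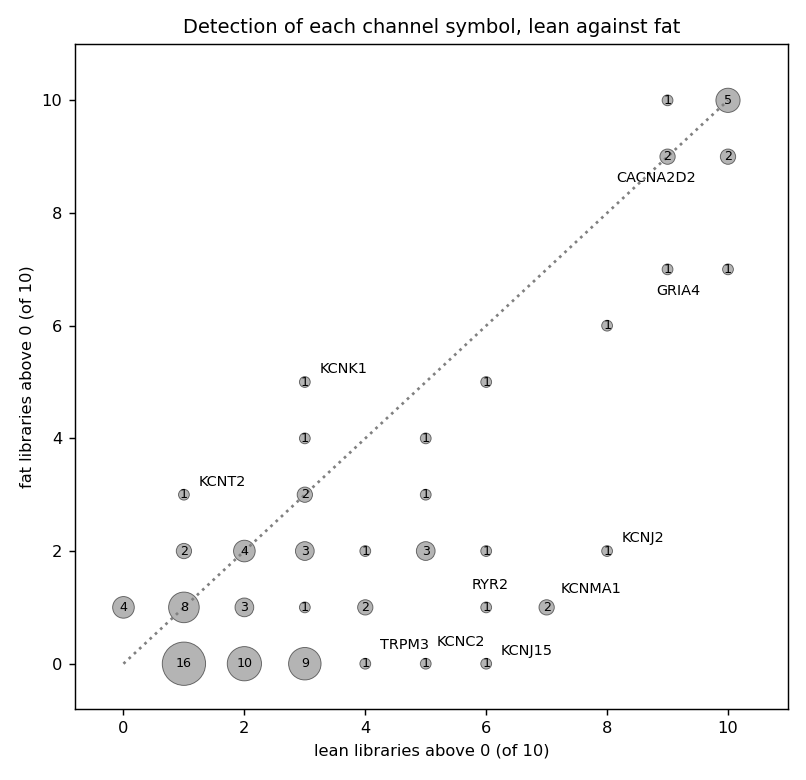
Number of lean libraries (horizontal axis) and fat libraries (vertical axis) in which each of the 95 detected channel symbols was above 0. The area and the number of each circle give the symbols at that position, and the dotted line marks equal numbers. Below the line lie 64 symbols and above it 10, and the 5 at the upper right were above 0 in all 20 libraries.

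Voltage-gated calcium channel pores were all trace or undetected, with 2.0 ± 1.25 of 8 above 0 per lean library and 0.7 ± 0.483 per fat library (SD). CACNA1C, the L-type pore of heart and smooth muscle, was detected in 7 lean libraries but in 1 fat library, and in no bird on both days. Its lean values ran from 0 to 0.168 normalized FPKM apart from 0.990 in bird 8, and the fat value was 0.0361 in bird 4. CACNA1S, the pore of skeletal muscle, was listed at 0 throughout. Among the auxiliary subunits, CACNA2D1 and CACNA2D3 were each detected in 3 lean libraries, at most at 0.115 and 0.183, and in no fat library. CACNB2 was above 0 in 3 lean and 2 fat libraries, and bird 8 when lean again held its highest value, 0.546.

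Voltage-gated potassium channels and their subunits were the largest group, 44 symbols of which 26 were detected. A lean library held 6.5 ± 3.69 of them above 0 and a fat library 2.6 ± 1.17. KCNC2, a fast-gating pore of rapidly firing neurons, was detected in 5 lean libraries, the highest being bird 1 at 0.472 normalized FPKM, and in no fat library. KCNA3, the pore known from human lymphocytes, was detected in 5 lean libraries, at most at 0.109, and in 2 fat libraries, at most at 0.0463. KCNH7, an ERG-type pore, was above 0 in 3 lean libraries and in no fat library. Listed at 0 throughout were 18 symbols of this group, among them KCNA5.

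The inward rectifiers numbered 12, with 3.5 ± 1.08 above 0 per lean and 1.7 ± 0.823 per fat library. KCNJ15 was the trace channel with the highest mean. It was above 0 in 6 lean libraries, those of birds 8, 1, 5, 7, 6 and 10 at 0.770, 0.425, 0.243, 0.124, 0.0375 and 0.0171, and was listed at 0 in all 10 fat libraries. KCNJ11, the pore of ATP-sensitive potassium channels, was above 0 in 4 lean libraries, the highest 0.432 in bird 1, and in 1 fat library. The two-pore channels did not follow this direction, with 2.1 of 10 above 0 in the average library of either condition. KCNK1 was above 0 in 3 lean and 5 fat libraries. Calcium- and sodium-activated potassium channels numbered 1.5 ± 1.27 and 0.8 ± 1.03 of 8, and KCNT2 was above 0 in 1 lean and 3 fat libraries.

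Of 16 transient receptor potential symbols apart from TRPC4AP, 12 were detected, 4.1 ± 1.91 per lean and 2.9 ± 1.10 per fat library. TRPV1, the capsaicin and heat receptor of mammals, reached 0.540 among the 5 lean libraries that held it and 0.104 among 2 fat libraries. TRPM3 was above 0 in 4 lean libraries and TRPC6, a channel that diacylglycerol opens, in 3, while both were listed at 0 in every fat library. The highest TRPC6 value was 0.227.

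Ionotropic glutamate receptor symbols apart from GRINA numbered 15, of which 13 were detected, 3.7 ± 1.42 per lean and 1.5 ± 0.972 per fat library. The NMDA receptor subunit GRIN2B was detected in 4 lean libraries and in 1 fat library. GRIN1, the subunit that every NMDA receptor needs, was above 0 in 1 fat library only, at 0.0247. Voltage-gated sodium channels were nearly undetected. Of 6 symbols, SCN2A was above 0 in 1 lean library and SCN2B in 1 fat library, and SCN3B, SCN4A, SCN4B and SCN8A were listed at 0.

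Trace channels were long genes. Their median genomic span on the zebra finch assembly was 75.3 kb, against 16.4 kb for the other trace symbols. Among the other trace symbols, the share above 0 in lean libraries was 18.6% ± 3.76 for spans under 10 kb and 32.0% ± 12.7 for spans of at least 100 kb. In fat libraries the shares were 12.4% ± 1.97 and 15.4% ± 4.03 (SD, n = 10). The 31 trace channels of at least 100 kb were above 0 at 27.4% ± 15.97 in lean and 9.03% ± 3.33 in fat libraries, and the 10 under 10 kb at 17% ± 9.49 and 6.0% ± 6.99.

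The difference in share between long and short genes, over the other trace symbols, was 13.4 ± 11.4 percentage points in lean libraries and 3.03 ± 4.08 in fat libraries. It was lower on day 5 in 7 of 10 birds (exact sign-flip permutation test over birds, two-sided, p = 0.0391). The comparison was chosen after seeing the data, on a class set from the same values, so no conclusion is drawn from this p. Leaving out bird 1, 5, 6, 8 or 10 took p to 0.0781 each time. In lean libraries the difference was 27.9 points in bird 1, 15.4 in bird 5, 27.0 in bird 6, 28.6 in bird 8 and 15.9 in bird 10. In the other lean libraries it ran from −2.26 in bird 3 to 9.37 in bird 2. The difference was above 0 in most other libraries too, and the fat libraries ran from −1.34 in bird 3 to 10.4 in bird 9. Whether gene length has a part in the lean excess of channels was not tested.

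**Figure D4:**
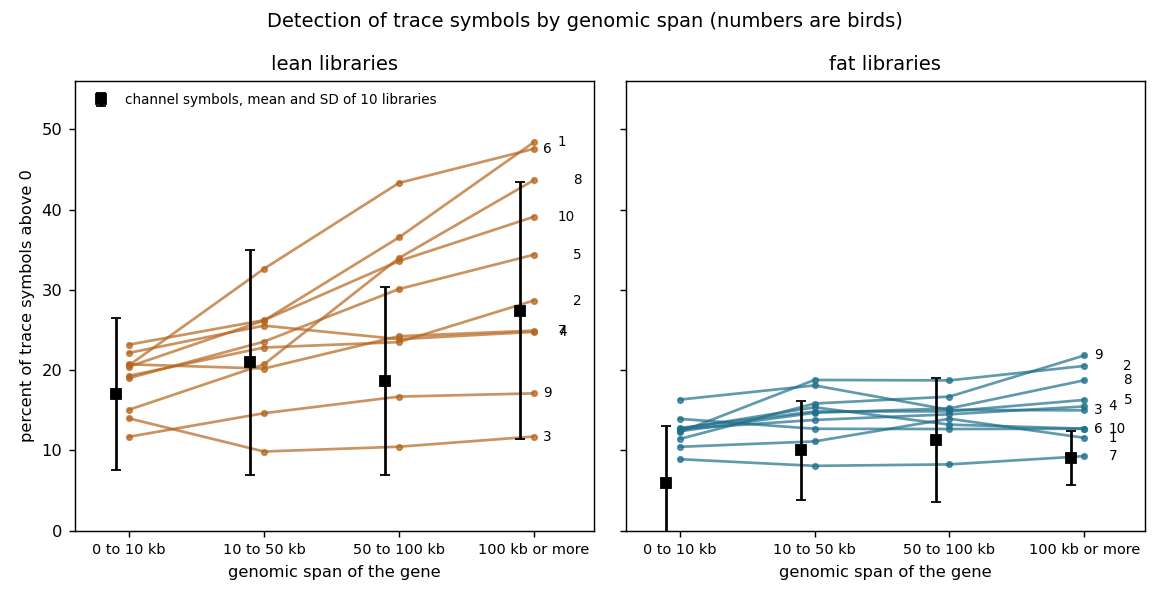
Percent of trace symbols above 0 in each library (vertical axis) by genomic span of the gene (horizontal axis), lean libraries left and fat libraries right. Lines are single libraries over trace symbols outside the channel list, numbered by bird, and black squares with bars are the mean and SD over 10 libraries for trace channels. Lines of lean birds 1, 5, 6, 8 and 10 reach 34.4% to 48.4% for spans of at least 100 kb, and no fat line exceeds 21.8%.

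Neural markers were counted beside the channels because many channels are neural genes. NEFL, a neurofilament gene, was abundant and higher on day 5 in all 10 birds, at 69.2 to 126 normalized FPKM in lean and 131 to 198 in fat libraries. The other 14 markers in the files summed to 0.124 to 3.61 in lean and 0 to 1.48 in fat libraries, lower on day 5 in 7 birds, with 11 detected and GAP43, STMN2 and GFAP at 0. Of these 14, the number above 0 was 6, 5, 7, 9 and 5 in the lean libraries of birds 1, 5, 6, 8 and 10, 2 to 4 in the other lean libraries and 0 to 4 in the fat libraries. Striated muscle markers summed to at most 1.28 in lean and 0.615 in fat libraries. Of 13 chosen, 10 were in the files and 8 were detected, with TNNC1 and ACTA1 at 0. Smooth muscle markers summed to 0.186 to 7.01 in lean (median 1.72) and 0.444 to 4.38 in fat libraries (median 2.80), with 5 of 7 genes detected and ACTA2 and MYOCD at 0. The part of these tissues in the channel values was not tested.

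Channels of other families gave a frame for these levels. Of 67 further channel symbols in the files, 56 were detected and 17 were expressed, the highest being LRRC8D, a subunit of volume-regulated anion channels, at a mean of 6.38 FPKM. It was followed by the mitochondrial calcium uniporter MCU at 6.09, the mitochondrial porin VDAC2 at 5.09, the ATP-gated P2RX1 at 4.84, LRRC8B at 4.38 and the store-operated calcium channel ORAI2 at 4.09. In limma 3 of 32 tested passed, all lower on day 5, against 371 of all 7800 symbols tested (4.76%). The median log2 fold change was −0.42, against −0.10 for all symbols tested.

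CLCN3, a chloride-proton exchanger of endosomes, was 1.68 to 4.10 normalized FPKM in lean and 0.473 to 2.86 in fat libraries, and it was lower on day 5 in every one of the 10 birds. Its log2 fold change was −1.15 ± 0.30 (SE, limma adjusted p = 0.0342). SCNN1G, a subunit of the epithelial sodium channel, was above 0 in 9 lean and 4 fat libraries (log2 fold change −1.69, adjusted p = 0.0287, limma). Its mean was 0.432 normalized FPKM in lean and 0.0591 in fat libraries, so it met the filter of 0.1 through its lean libraries. Its call is therefore a description only. The subunits SCNN1A and SCNN1B were listed at 0 in every library. With the block CLIC4 and ANO5 also passed (adjusted p = 0.0434 and 0.0415, limma). This made 5 of 32 other channels, against 1034 of 7800 symbols (13.3%). The call of CLCN3 was lost when bird 1, 4, 5, 7, 8 or 10 was left out (adjusted p = 0.0556 to 0.0956), with the depth covariate (0.0526) and with no filter (0.0582). That of SCNN1G was lost without bird 1, 2, 3, 5, 6 or 8 (0.0514 to 0.0738, limma).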

How the data were processed

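Whole blood RNA of 10 garden warblers was sequenced on day 1 (lean) and day 5 (fat). The authors trimmed reads with ERNE 2 and used STAR for mapping to the zebra finch assembly and StringTie for quantification. The deposited tables hold the coverage (mean reads per base), the FPKM and the TPM of each gene as StringTie writes them, without scaling between libraries, and no read counts. The comparison of conditions made by the authors used DESeq2 on read counts, which were not used here.

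Lines sharing a symbol were added up per library. Scaling factors by the median of ratios came from the 4487 symbols above 0 in every library. FPKM was divided by them. Symbols whose deposited FPKM averaged at least 0.1 (7800 of 20898) were fitted as log2(FPKM + 0.1) with limma 3.58.1 in R 4.3.3 (eBayes with trend, two-sided). The threshold was 0.05 after Benjamini-Hochberg adjustment, and no bird term was fitted, since the methods of the study name none. A fold change on this scale understates changes of low genes. The fit was tested on simulated data, drawn as independent normal values without pairing of birds or values piled up at 0. No conclusion on low symbols is drawn from that simulation. Detection means a deposited FPKM above 0. It was compared by exact sign tests over birds and by Fisher's exact test. Tables were handled in Python 3.11.15 (pandas 2.3.3, numpy 2.4.6), sign tests in scipy 1.17.1 and plots in matplotlib 3.10.9.

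Replicate numbers pair libraries of the same bird. After removal of condition means, the 2 libraries of a bird correlated at r = 0.152 to 0.382 over genes, against a median of −0.0245 for other lean and fat libraries. Within a condition each library is a separate bird, so n = 10 per condition counts animals.

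The members and lists were chosen with earlier results of these data known. Named genes were every expressed channel, those called with or without the bird block, the 12 next by mean, the 10 others with the largest difference in libraries above 0, the 8 that the paper mentions, and of the other channel list the top 6 and those called. Some genes that this rule takes are not reported here. Others named in passing were chosen after their values were seen. Alternatives were other pseudocounts, filters, scalings and detection limits, a depth covariate, a bird block and leaving out each bird. Genomic spans come from the files' coordinates on the zebra finch assembly. No sequence is shown, since no genome of that build was used here.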

Additional observations from a re-analysis of the deposited data

Results flagged for a closer look

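Single libraries stood far from the other 9 of their condition in 15 of 72 groups examined by Dixon's criterion at 95%. Chance flags about 1 in 20 groups of normally distributed values. Most of these groups are trace symbols, in which 1 library above 0 is enough, so the count cannot be set against that rate. In lean libraries bird 8 stood highest for CACNA1C at 0.990 normalized FPKM, KCNH7 at 0.265 and CACNB2 at 0.546, and it held 13 channel symbols of at least 1 deposited FPKM, against 4 to 8 in the other lean libraries. Bird 1 stood highest when lean for TRPV1 at 0.540 and KCNJ11 at 0.432.

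In fat libraries ITPR3 was lowest in bird 8 at 0.120, against 0.487 to 1.42 in the others. CACNA2D2 was 0 in bird 5, against 0.182 to 0.651. The remaining fat libraries were high ones among values at or near 0. KCNMA1 was 0.0939 in bird 5, KCNJ2 was 0.201 and KCNJ11 0.0317 in bird 1, CACNA1C was 0.0361 in bird 4, RYR2 was 0.0805 in bird 7, TRPV1 was 0.104 in bird 9 and CACNB2 was 0.0732 in bird 8.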

How the results depend on the processing

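The count of channel symbols passing limma was 0, and it stayed 0 with other pseudocounts, other filters, the depth covariate and each bird left out. It was 2 of 18 on FPKM as deposited, 5 of 18 on TPM and 2 of 18 with the replicate block. All symbols passing were 371 of 7800, but 120 of 12705 with no filter. Of the same 7800, 882 passed on FPKM as deposited, 1243 on TPM, 1034 with the block and 160 with the depth covariate. With a bird left out, 73 (bird 10) to 400 (bird 9) passed. Other channels passing were 3, but 1 with no filter, 1 with a filter of 1, 7 on FPKM as deposited, 8 on TPM, 5 with the block, 1 with the depth covariate and 0 to 3 with a bird left out. The block changed no other call reported.

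Expressed symbols were 6, but 3 at a limit of 2, and 5 to 6 with a bird left out. The fall in channels per library was 13.1, and it was 12.7 at a limit of 0.01 FPKM, 7.9 at 0.1 and 2.4 at 1. The limits of 0.1 and 1 were set on deposited FPKM. Scaling factors averaged 1.14 in lean and 0.925 in fat libraries, so such limits were on average easier to reach in lean libraries. Symbols above 0 in more lean libraries were 64, 47 at a limit of 0.1 and 58 to 68 with a bird left out. The span difference of −10.4 points was −8.40 to −12.1 with a bird left out, an alternative chosen after seeing the data.

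Signs turned for 4 symbols, and in none of these settings did the value pass the test. KCNK5 was −0.0059 at pseudocount 1, −0.15 on FPKM as deposited, −0.22 on TPM and −0.21 to 0.15 with a bird left out. CACNB3 was −0.56 to 0.036 with a bird left out, above 0 without bird 9. LRRC8B was −0.24 on FPKM as deposited, −0.34 on TPM and −0.0045 (bird 7) to 0.12 with a bird left out. ORAI2 was −0.27 and −0.37 on these scales, and −0.049 to 0.17 with a bird left out, below 0 without birds 8 and 9. The causes were not tested. Coverage was under 1 for 244 of 246 trace values, and reads per gene are not given, so no counting interval could be set.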

Other observations

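Outside the symbol families of the report, CNGA4, a subunit of the cyclic nucleotide-gated channel of olfactory neurons, was at 13.6 normalized FPKM in 1 fat library and listed at 0 in the other 19 libraries. It thereby entered the low class with a mean deposited FPKM of 0.646, and it was named after its values were seen. The voltage-dependent anion channel VDAC1 had medians of 2.69 in lean and 2.31 in fat libraries and was listed at 0 in 1 lean library. Its means went the other way, 2.68 in lean and 2.97 in fat libraries, and it was lower on day 5 in 3 of 10 birds. The proton channel HVCN1, known from phagocytes, reached 4.03 among the 7 lean libraries that held it and 2.02 among 4 fat libraries.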
